A study of Mus musculus with 24 samples.

Results

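The data describe 9 genes of glucose metabolism and insulin signalling in mouse liver: Pklr, Pck1, Fbp1, Slc2a2, Insr, Irs1, Irs2, Foxo1 and Ppargc1a. They were chosen by name, out of 22180 genes that had a probe set with exactly 1 gene symbol. Each gene was read by the probe set with the highest mean over 23 arrays. Liver RNA of male C57BL/6J mice was measured with 1 array per mouse, 24 arrays in all, for 4 mice per group. HFD-EPA/DHA was a high-fat diet in which oils enriched in the n-3 fatty acids EPA and DHA took the place of part of the corn oil, HFD-corn oil held corn oil alone in that place, and control was a diet lower in fat. Groups were HFD-EPA/DHA, HFD-corn oil and control at 8 weeks, started at 9 weeks of age, and the same diets at 12 weeks, started at 10 weeks of age in a separate study. Coconut oil made up most of the fat in both HFDs, and the control diet held less of it. Both HFDs also held added cholesterol, more sucrose and less starch than the control diet. Fat and these other components therefore cannot be told apart in a comparison with control. Food was removed early in the morning on which the mice were killed, over 3 days with mice of 2 diets taken each day, and the 4 mice of a group were picked for their body weight and plasma lipids and could share cages.

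Glucose enters and leaves the hepatocyte through the transporter GLUT2, encoded by Slc2a2. After a meal it is broken down by glycolysis, whose last step in liver is catalysed by L-type pyruvate kinase, encoded by Pklr and known to be repressed by polyunsaturated fatty acids. Between meals the liver makes glucose, with phosphoenolpyruvate carboxykinase (Pck1) and fructose-1,6-bisphosphatase (Fbp1) as control steps. Insulin binds its receptor (Insr), the receptor phosphorylates the docking proteins Irs1 and Irs2, and the kinase Akt downstream of them excludes the transcription factor Foxo1 from the nucleus. Foxo1 and the coactivator PGC-1α (Ppargc1a) are known to raise the transcription of gluconeogenic genes in fasting, and Foxo1 also raises that of Irs2 and Insr.

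All values are log2 signals as deposited, so that a difference of 1 is a doubling of the signal. They ran over the whole table between 4.39 and 13.93, with array medians of 7.14 to 7.21. Replicate 3 of HFD-corn oil at 8 weeks, which the study removed, had a median correlation of 0.941 with the other arrays of its group, against 0.983 to 0.990 for the arrays kept, and was left out here too. The 23 arrays left, with n = 3 for that group, entered 1 limma fit over 41345 probe sets. The contrast between the HFDs is given as HFD-EPA/DHA over HFD-corn oil, and a positive value means higher in HFD-EPA/DHA. In the tests that follow, called means a p from limma below 0.05 after Benjamini-Hochberg adjustment over all probe sets. Mean levels of 8 hepatocyte markers were 12.32 to 12.56 in every array, whereas 3 islet markers were at 6.40 to 6.79 and 4 markers of exocrine pancreas at 6.83 to 7.22, near the array medians. In whole liver, fewer cells of a type and less RNA per cell cannot be told apart.

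None of the 9 genes was called in any of 12 comparisons, 0 of 108 results by limma, and 14 of the 108 had an unadjusted p under 0.05. The lowest adjusted p was 0.0905, for Pklr in HFD-EPA/DHA vs. control at 8 weeks. Calls were rare among all probe sets in this fit as well. At 8 weeks they made up 0.443% of all probe sets for the HFD-EPA/DHA and 0.738% for the HFD-corn oil livers against control, and 0.0266% between the HFDs. At 12 weeks the shares were 0.617%, 0.179% and 0.00967% for the same comparisons. The absence of calls among 9 genes was therefore near the background. The mean signals of the 9 genes lay between percentiles 82.1 and 99.9 of all probe sets. Shares and medians over all probe sets are thus not matched to these genes for signal level.

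Counts at an unadjusted p were set beside the share of all probe sets that passed the same rule. At 8 weeks, the HFD-EPA/DHA livers vs. control had 2 of 9 genes with an unadjusted limma p under 0.05, Pklr and Slc2a2, both lower, against 8.05% of all probe sets. Among the HFD-corn oil livers vs. control it was 4 of 9, namely Irs2, Pck1, Insr and Ppargc1a, all lower, against 8.23%. The contrast between the HFDs had 2 of 9, Pklr lower and Irs2 higher, against 6.92%. At 12 weeks, HFD-EPA/DHA vs. control had 2 of 9, Ppargc1a and Pklr, both lower, against 8.44%, and the HFD-corn oil livers had 2 of 9, Ppargc1a and Irs2, both lower, against 8.53%. Only Pklr passed in the contrast between the HFDs at 12 weeks, 1 of 9 against 4.63%. Comparisons at 1 time share arrays, so these counts are not independent of each other. Arrays of the groups did not overlap for Pklr in HFD-EPA/DHA vs. control at 8 weeks, 1 of 9 genes against 4.15% of all probe sets, for Irs2 and Insr in HFD-corn oil vs. control, 2 of 9 against 9.13%, and for Irs2 in the contrast between the HFDs, 1 of 9 against 7.72%. At 12 weeks they did not overlap for Ppargc1a in HFD-EPA/DHA vs. control, 1 of 9 against 4.91%, for no gene in HFD-corn oil vs. control, 0 of 9 against 4.59%, and for Pklr in the contrast between the HFDs, 1 of 9 against 2.9%. The median log2 fold change over the 9 genes was −0.13 vs. control for each of the HFDs at 8 weeks, against 0.01 and −0.03 over all probe sets. At 12 weeks the medians were 0.01 and −0.06, against −0.01 and −0.01 over all probe sets.

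**Figure D1:**
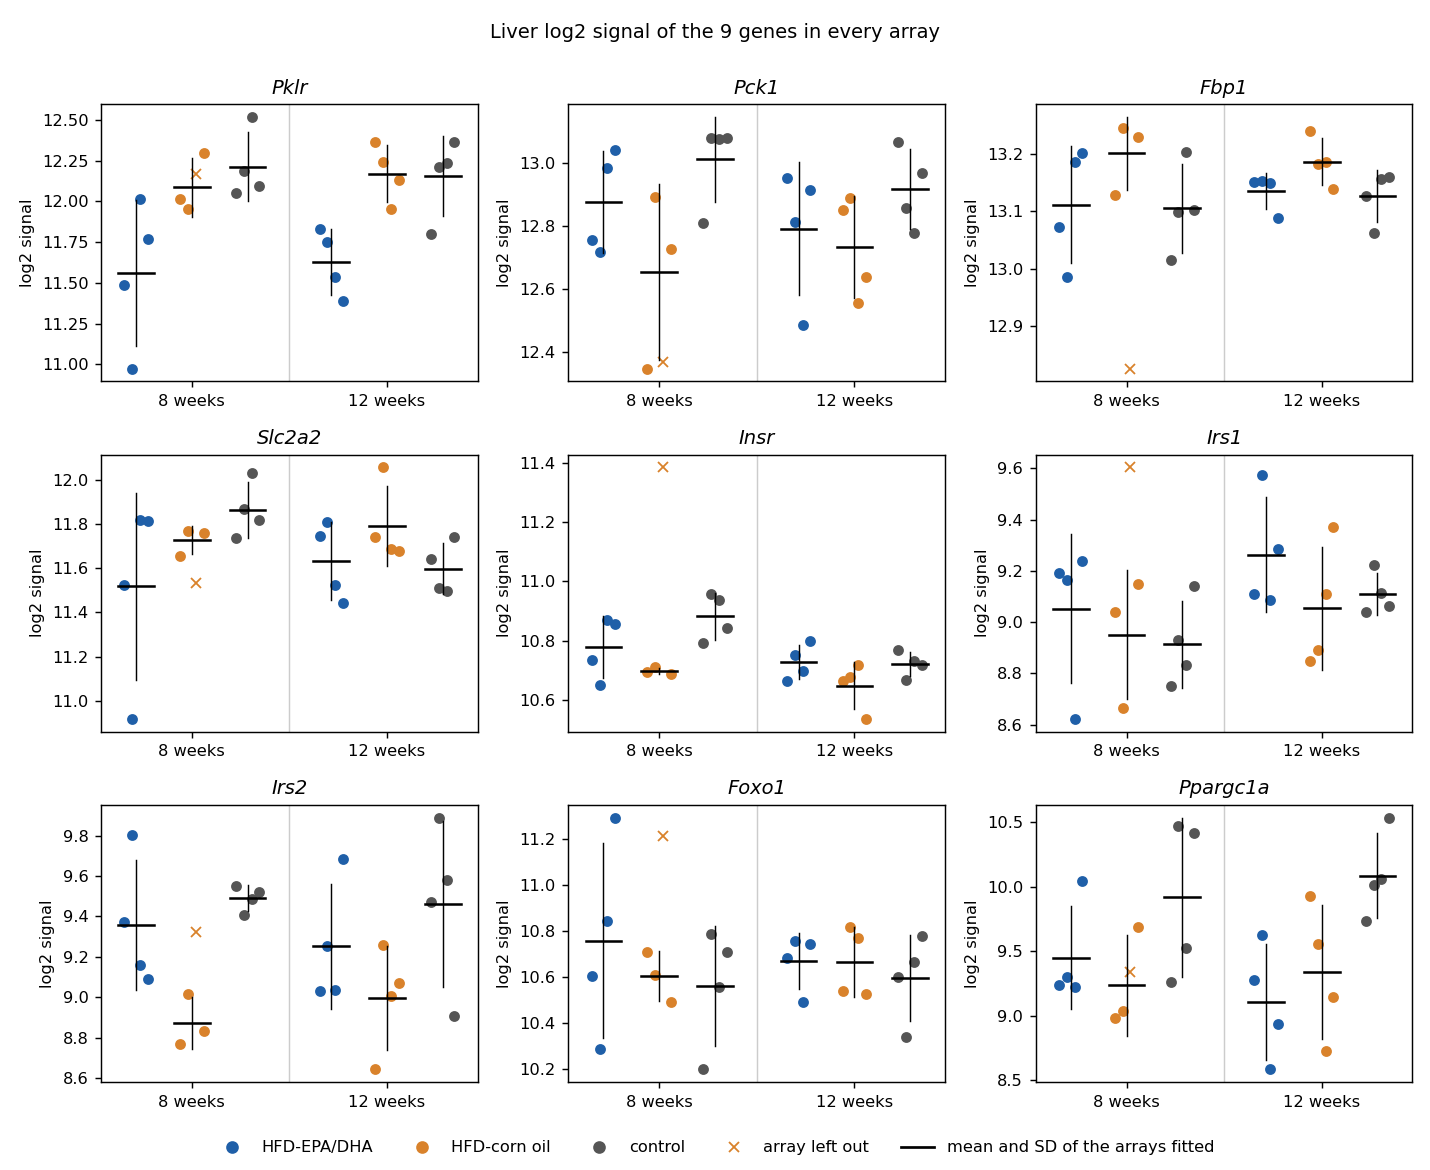
Log2 signal of each gene (vertical axis, its own scale per panel) in every array, with HFD-EPA/DHA left, HFD-corn oil in the middle and control right at each time. Points are mice, bars are the mean and SD of the arrays fitted, and the cross is the array left out. Pklr of the HFD-EPA/DHA mice lay at or below 12.01 at 8 weeks and at or below 11.83 at 12 weeks.

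Pklr showed lower signals in the HFD-EPA/DHA livers at both times. At 8 weeks it had 11.48, 10.97, 12.01 and 11.77 in the HFD-EPA/DHA livers, 12.01, 11.96 and 12.29 in the HFD-corn oil livers, and 12.05, 12.18, 12.52 and 12.09 in the control livers. At 12 weeks it had 11.83, 11.75, 11.53 and 11.39 in the HFD-EPA/DHA livers, 12.36, 12.24, 11.95 and 12.13 in the HFD-corn oil livers, and 11.80, 12.21, 12.24 and 12.37 in the control livers. The HFD-EPA/DHA mice thus lay below every control at 8 weeks and below every HFD-corn oil mouse at 12 weeks, while 1 mouse overlapped in each of the other contrasts of that diet. The log2 fold change of HFD-EPA/DHA vs. control was −0.65 ± 0.17 at 8 weeks (the error of each fold change here is its SE; 95% interval −1.001 to −0.30), a signal 0.636 times that of control (limma, unadjusted p = 0.000761, adjusted p = 0.0905). At 12 weeks it was −0.53 ± 0.17, or 0.694 times control (limma, adjusted p = 0.232). The contrast between the HFDs gave −0.53 ± 0.18 at 8 weeks and −0.54 ± 0.17 at 12 weeks (limma, adjusted p = 0.684 and 0.799). HFD-corn oil vs. control gave −0.13 ± 0.18 and 0.02 ± 0.17 at the 2 times.

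The call for Pklr turned on single arrays. Without HFD-EPA/DHA replicate 3 at 8 weeks, the highest of its group, the log2 fold change vs. control was −0.80 and was called (limma, adjusted p = 0.0252). Without replicate 2, the lowest, it was −0.46. With all 24 arrays and array weights it was −0.70 and was called as well (limma, adjusted p = 0.0312). The share of all probe sets called was not counted in these other fits.

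The genes whose log2 signal followed Pklr most closely over the 23 arrays, among 13154 genes above the median level, encode enzymes of fatty acid synthesis. They were Acaca (acetyl-CoA carboxylase 1, r = 0.94), Elovl6 (a fatty acid elongase, r = 0.91) and Fasn (fatty acid synthase, r = 0.90). With group means removed r was 0.88, 0.83 and 0.78. These correlations describe 23 arrays in 6 groups and were given no test. Fasn had a log2 fold change of −1.10 ± 0.29 in HFD-EPA/DHA vs. control at 8 weeks and −1.15 ± 0.29 at 12 weeks (limma, adjusted p = 0.0901 and 0.0699), and Acaca −0.68 ± 0.17 and −0.65 ± 0.17 (limma, adjusted p = 0.0813 and 0.102). In HFD-corn oil vs. control Fasn had −0.26 ± 0.31 and −0.16 ± 0.29.

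The Pklr sequence is shown because liver-type pyruvate kinase is the textbook gene of a carbohydrate response element, to which the factor ChREBP binds. RefSeq on build GRCm38.p6 gives windows for 2 Pklr starts, and this one lies before the second, inside the annotated gene on the plus strand (chr3:89136373-89136622). Capitals mark CACG and CGTG with 9 bases between them, a motif that reads alike on both strands and was chosen after the sequence was seen. It spans positions −170 to −154 before the start and occurs in 72 of 32851 windows of 250 bases, 0.219%, and in no other of the 9 windows matched to these genes. Binding was not measured here.
Pklr: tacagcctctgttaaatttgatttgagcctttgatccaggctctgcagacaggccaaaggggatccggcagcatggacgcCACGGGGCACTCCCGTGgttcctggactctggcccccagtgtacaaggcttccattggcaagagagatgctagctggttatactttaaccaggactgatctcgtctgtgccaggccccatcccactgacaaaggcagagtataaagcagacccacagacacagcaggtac

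Slc2a2, the GLUT2 transporter, had an unadjusted p under 0.05 in 1 comparison of diets, at 8 weeks. It had 11.52, 10.92, 11.82 and 11.81 in the HFD-EPA/DHA livers, 11.66, 11.77 and 11.76 in the HFD-corn oil livers, and 11.73, 11.87, 12.03 and 11.82 in the control livers. Replicate 2 of HFD-EPA/DHA stood far below the rest and the groups overlapped. The log2 fold change of HFD-EPA/DHA vs. control was −0.34 ± 0.14 (limma, unadjusted p = 0.0249, adjusted p = 0.493), and without that replicate it was −0.14. At 12 weeks Slc2a2 averaged 11.63 ± 0.18 in HFD-EPA/DHA, 11.79 ± 0.18 in HFD-corn oil and 11.60 ± 0.12 in control (SD, n = 4 each). The comparison with control was then 0.03 ± 0.14 for HFD-EPA/DHA and 0.19 ± 0.14 for HFD-corn oil, and the change of HFD-EPA/DHA vs. control from 8 to 12 weeks was 0.38 ± 0.20 (limma, unadjusted p = 0.0758, adjusted p = 0.983).

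Pck1 had its lowest group mean in HFD-corn oil at both times. At 8 weeks it had 12.75, 12.72, 12.98 and 13.04 in the HFD-EPA/DHA livers, 12.35, 12.89 and 12.73 in the HFD-corn oil livers, and 12.81, 13.08, 13.08 and 13.08 in the control livers. Only 1 control mouse overlapped with the HFD-corn oil mice. HFD-corn oil vs. control gave a log2 fold change of −0.36 ± 0.13 (limma, unadjusted p = 0.0124, adjusted p = 0.380), which was −0.20 without HFD-corn oil replicate 1, and HFD-EPA/DHA vs. control −0.14 ± 0.12. At 12 weeks HFD-EPA/DHA vs. control gave −0.13 ± 0.12 and HFD-corn oil vs. control −0.18 ± 0.12, with intervals that included 0.

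The Pck1 promoter is shown because its cyclic AMP response element, which mediates the fasting response of this gene, is a textbook regulatory site. The window is chr2:173152823-173153072 on the plus strand (RefSeq, GRCm38.p6), the 250 bases before the start. Capitals mark TTACGTCA at positions −93 to −86, searched for after the sequence was seen and found on either strand in 147 of 32851 windows, 0.447%.
Pck1: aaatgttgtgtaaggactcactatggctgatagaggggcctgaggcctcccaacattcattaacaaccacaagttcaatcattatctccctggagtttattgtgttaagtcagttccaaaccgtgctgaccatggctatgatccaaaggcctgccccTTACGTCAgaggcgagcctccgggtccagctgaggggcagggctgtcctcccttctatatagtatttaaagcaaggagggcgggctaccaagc

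Fbp1 was the steadiest of the 9 genes together with Insr, with a pooled SD within groups of 0.0645 for Fbp1 and 0.0711 for Insr. Its group means at 8 weeks were 13.11 ± 0.10 in HFD-EPA/DHA, 13.20 ± 0.06 in HFD-corn oil and 13.11 ± 0.08 in control, and those at 12 weeks 13.14 ± 0.03, 13.19 ± 0.04 and 13.13 ± 0.05 in the same diets (SD, n = 4, 3 in HFD-corn oil at 8 weeks). All arrays fitted lay between 12.99 and 13.24. The 95% intervals of HFD-EPA/DHA vs. control were −0.14 to 0.15 at 8 weeks and −0.13 to 0.15 at 12 weeks, so a difference beyond about 0.15 lay outside them. The highest interval was −0.06 to 0.25, for HFD-corn oil vs. control at 8 weeks.

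Insr, the insulin receptor, had a lower mean in HFD-corn oil livers than in control at 8 weeks, by an amount that did not pass the adjusted test. It had 10.73, 10.65, 10.87 and 10.86 in the HFD-EPA/DHA livers, 10.69, 10.71 and 10.69 in the HFD-corn oil livers, and 10.79, 10.96, 10.94 and 10.84 in the control livers. The 3 HFD-corn oil mice lay below all 4 controls and within the range of the HFD-EPA/DHA mice. Against control, HFD-corn oil had a log2 fold change of −0.18 ± 0.08 (limma, unadjusted p = 0.0242, adjusted p = 0.481). The array left out reads 11.38 for Insr, above all arrays fitted, and with it in the fit the contrast between the HFDs had the opposite sign at 8 weeks (−0.09, against 0.08 without it). At 12 weeks the groups overlapped, with 10.73 ± 0.06 in HFD-EPA/DHA, 10.65 ± 0.08 in HFD-corn oil and 10.72 ± 0.04 in control (SD, n = 4 each).

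Irs2, the docking protein that Foxo1 is known to induce in fasting, had lower signals in the HFD-corn oil livers. At 8 weeks it had 9.37, 9.80, 9.16 and 9.09 in the HFD-EPA/DHA livers, 8.77, 9.02 and 8.83 in the HFD-corn oil livers, and 9.55, 9.41, 9.49 and 9.52 in the control livers. The HFD-corn oil mice lay below every mouse of both other diets. HFD-corn oil vs. control had a log2 fold change of −0.62 ± 0.19 (95% interval −1.01 to −0.22), a signal 0.651 times that of control (limma, unadjusted p = 0.0037, adjusted p = 0.201). In a fit of those 2 groups alone it was called (limma, adjusted p = 0.0173), with an SE of 0.096. The share of all probe sets called in that fit was not counted. The contrast between the HFDs was 0.48 ± 0.19 (limma, adjusted p = 0.687), and 0.34 without replicate 2 of HFD-EPA/DHA. HFD-EPA/DHA vs. control was −0.13 ± 0.18.

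At 12 weeks Irs2 had 9.03, 9.25, 9.04 and 9.69 in the HFD-EPA/DHA livers, 8.64, 9.26, 9.01 and 9.07 in the HFD-corn oil livers, and 9.47, 9.89, 9.58 and 8.91 in the control livers. Replicate 4 of the controls lay below every HFD-EPA/DHA mouse and within the range of the HFD-corn oil mice, so that the groups overlapped. HFD-corn oil vs. control had a log2 fold change of −0.47 ± 0.18 (limma, unadjusted p = 0.0149, adjusted p = 0.427), which ran from −0.65 without control replicate 4 to −0.32 without control replicate 2. A further probe set, which is shared between Irs2 and 9530052E02Rik and so was not used, gave 0.07 ± 0.11 and 0.00 ± 0.10 for HFD-corn oil vs. control at 8 and 12 weeks. Its mean signal was 7.40, near the array medians, against 9.25 for the probe set used. Which of the genes named for it the shared probe set reads cannot be told from these values. In the contrast between the HFDs the shared probe set had −0.26 ± 0.11 at 8 weeks (limma, unadjusted p = 0.0242, adjusted p = 0.687), opposite in sign to the 0.48 of the probe set used.

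Irs1, the other docking protein, had no unadjusted p under 0.05. Its group means at 8 weeks were 9.05 ± 0.29 in HFD-EPA/DHA, 8.95 ± 0.25 in HFD-corn oil (n = 3) and 8.91 ± 0.17 in control, and at 12 weeks 9.26 ± 0.22, 9.05 ± 0.24 and 9.11 ± 0.08 in the same diets (SD, n = 4 otherwise). Groups overlapped in all comparisons of diets, and the log2 fold changes were −0.06 to 0.21, each with an interval that included 0. In HFD-EPA/DHA at 8 weeks, replicate 3 was at 8.62 and the other mice between 9.16 and 9.24. The second probe set of Irs1, with a mean of 7.22 near the array medians, gave fold changes between −0.20 and 0.11.

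Foxo1 had no unadjusted p under 0.05 either. It averaged 10.76 ± 0.42 in HFD-EPA/DHA, 10.60 ± 0.11 in HFD-corn oil (n = 3) and 10.56 ± 0.26 in control at 8 weeks, and 10.67 ± 0.12, 10.66 ± 0.15 and 10.60 ± 0.19 in the same diets at 12 weeks (SD, n = 4 otherwise). Mice of HFD-EPA/DHA at 8 weeks ran from 10.29 to 11.29, the widest range of the 6 groups. The log2 fold changes of the 6 comparisons of diets were 0.01 to 0.20 with intervals that included 0, that of HFD-EPA/DHA vs. control at 8 weeks being −0.13 to 0.52. Transcript levels do not report the phosphorylation by which insulin acts on Foxo1, which was not measured by these arrays.

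Ppargc1a had the largest spread of the 9 genes, with a pooled SD within groups of 0.464, and its mean was lower in both HFDs than in control at both times. At 8 weeks it had 9.24, 9.30, 9.22 and 10.05 in the HFD-EPA/DHA livers, 8.98, 9.04 and 9.68 in the HFD-corn oil livers, and 9.26, 10.47, 9.53 and 10.41 in the control livers. Of the 4 controls, 2 lay within the range of both HFDs and 2 above every mouse of them. At 12 weeks it had 9.28, 9.63, 8.58 and 8.94 in the HFD-EPA/DHA livers, 9.93, 9.55, 8.72 and 9.14 in the HFD-corn oil livers, and 9.74, 10.01, 10.06 and 10.53 in the control livers. All 4 HFD-EPA/DHA mice lay below all controls, and 1 HFD-corn oil mouse overlapped with them. HFD-EPA/DHA vs. control at 12 weeks had a log2 fold change of −0.98 ± 0.28 (95% interval −1.56 to −0.39), a signal 0.508 times that of control (limma, unadjusted p = 0.00216, adjusted p = 0.159). HFD-corn oil vs. control was −0.68 ± 0.31 at 8 weeks and −0.75 ± 0.28 at 12 weeks (limma, adjusted p = 0.554 and 0.426), and HFD-EPA/DHA vs. control at 8 weeks −0.47 ± 0.28 (limma, adjusted p = 0.753). Without replicate 2 of the 8-week controls, HFD-EPA/DHA vs. control was −0.28 and HFD-corn oil vs. control −0.50 at that time. The HFDs differed from each other by 0.21 ± 0.31 at 8 weeks and −0.23 ± 0.28 at 12 weeks.

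The Ppargc1a window is shown beside that of Pck1 because this gene, too, is known to respond to cyclic AMP signalling in fasting. It is chr5:51567726-51567975 on the minus strand (RefSeq, GRCm38.p6), the 250 bases before a start that lies inside the annotated gene. The gene has further starts not shown, and whether the start shown takes part in that response was not tested. Capitals mark the half-site CGTCA at positions −49 to −45, searched for after the sequences were seen. On either strand it occurs in 5836 of 32851 windows, 17.8%, and in those of Pck1 and Irs1 among the 9 genes.
Ppargc1a: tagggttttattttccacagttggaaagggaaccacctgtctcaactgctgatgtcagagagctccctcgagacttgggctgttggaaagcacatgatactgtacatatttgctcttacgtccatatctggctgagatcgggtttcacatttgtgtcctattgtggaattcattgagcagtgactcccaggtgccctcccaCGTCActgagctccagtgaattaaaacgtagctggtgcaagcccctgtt

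Further motifs were searched on both strands in the 9 windows of 250 bases that RefSeq gives for 8 of the genes. The Foxo motif GTAAACA and the full cyclic AMP response element TGACGTCA were in none of the windows, against 3.17% and 1.55% of all windows. The E-box CACGTG was in those of Irs1 and Irs2, against 6.02%.

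**Figure D2:**
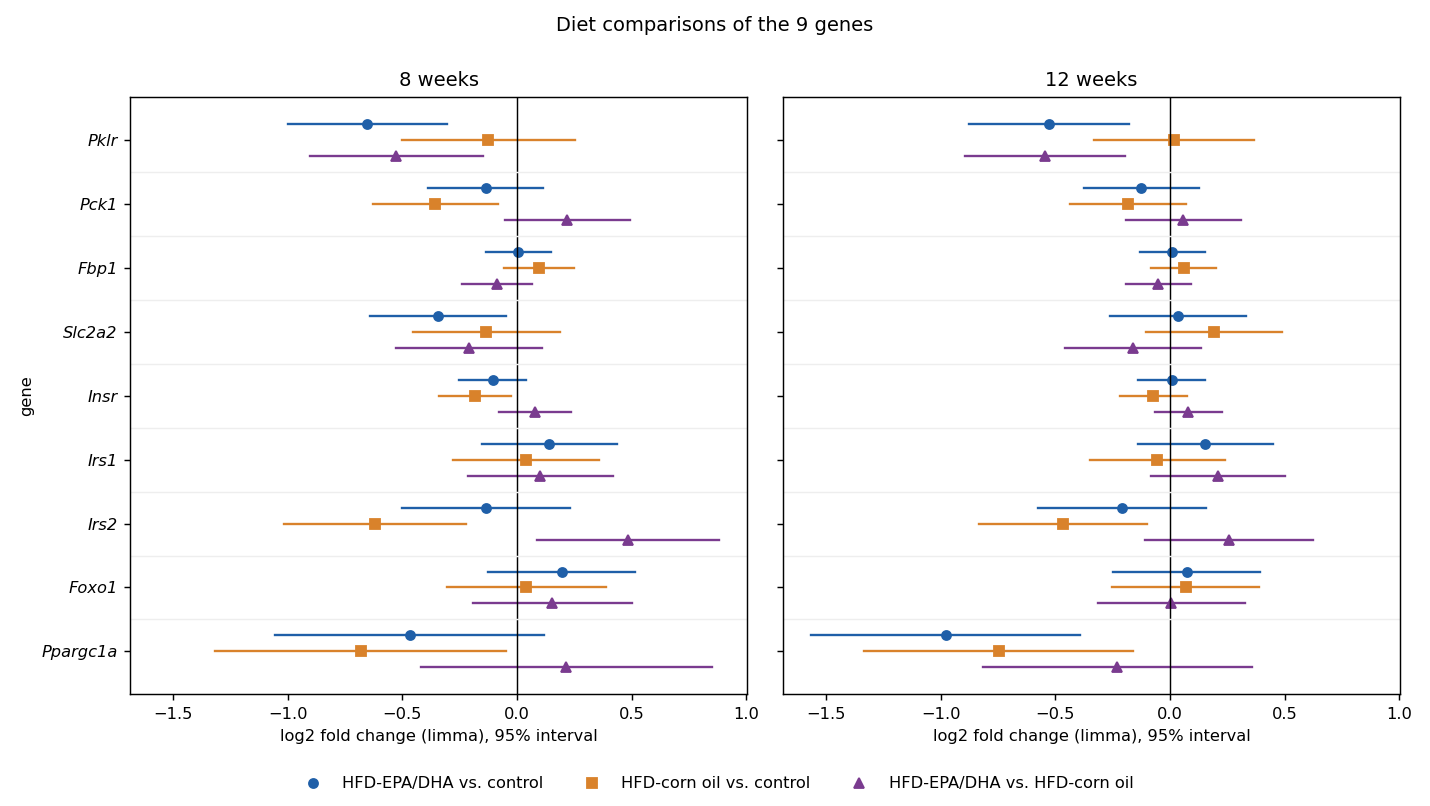
Log2 fold change (horizontal axis, points) with its 95% interval (lines) from limma for each gene in the 3 comparisons of diets at 8 weeks (left) and 12 weeks (right). Intervals of Pklr lay below 0 in both comparisons of HFD-EPA/DHA at both times. Those of Irs2 and Ppargc1a lay below 0 in HFD-corn oil vs. control at both times. Those of Fbp1 included 0 throughout, and no gene passed after adjustment over all probe sets.

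Neither the comparisons of time nor the change of a diet difference with time called a gene. The change from 8 to 12 weeks had 0 of 9 genes with an unadjusted limma p under 0.05 in the contrasts of either HFD with control and in that between the HFDs, against 4.95%, 3.64% and 4.46% of all probe sets, and calls over all probe sets were 0, 0 and 0, or 0% in each. The largest such change was that of Ppargc1a in HFD-EPA/DHA vs. control, −0.51 ± 0.40 (limma, adjusted p = 0.983). In 12 vs. 8 weeks, 0 of 9 genes had an unadjusted p under 0.05 in HFD-EPA/DHA (5.49% of all probe sets) and in HFD-corn oil (3.32%), where 0% of all probe sets were called. Among controls 1 of 9 passed that rule, against 6.89%, and calls made up 0.00967% of all probe sets. It was Insr, with a log2 fold change of −0.16 ± 0.07 (limma, unadjusted p = 0.0321, adjusted p = 0.694). The 2 times were separate studies, so time and study cannot be told apart.

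The other genes of these pathways were taken as 11 lists of 133 genes, of which 120 were measured with the members included. For Gpi1 of the glycolysis list, the match by name gave Pigq, a different gene that shares this older symbol. Thus 1 of the 120 is not a gene of glycolysis, and Gpi1 itself was not read. Calls by limma over the 120 were 1 for each of the HFDs vs. control at 8 weeks, and 0 in each other comparison of diets. The shares called over all probe sets were 0.443% for HFD-EPA/DHA and 0.738% for HFD-corn oil vs. control at 8 weeks. A count of 1 in 120 was therefore near the background. In both comparisons with control at 8 weeks 17 of 120, or 14.2%, had an unadjusted p under 0.05, beside 8.05% and 8.23% of all probe sets, and between the HFDs it was 9, or 7.5%, beside 6.92%. At 12 weeks it was 11 for HFD-EPA/DHA vs. control, or 9.17%, beside 8.44%, 17 for HFD-corn oil vs. control, or 14.2%, beside 8.53%, and 7 between the HFDs, or 5.83%, beside 4.63%. Medians over the 120 genes were between −0.02 and 0.01 in the 6 comparisons of diets.

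Sesn1 and Foxo3 were those called. Sesn1, a sestrin that restrains mTORC1 and a known Foxo target, was lower in HFD-EPA/DHA vs. control at 8 weeks. Its mice had 8.15 to 8.46 with a mean of 8.35 ± 0.14 in HFD-EPA/DHA and 8.72 to 8.93 with a mean of 8.85 ± 0.10 in control (SD, n = 4 each), without overlap. The log2 fold change was −0.50 ± 0.11 (limma, adjusted p = 0.0454), and at 12 weeks −0.24 ± 0.11 (limma, adjusted p = 0.581). Sesn1 was also lower in HFD-corn oil vs. control at 8 weeks, by −0.35 ± 0.12 (limma, unadjusted p = 0.00923, adjusted p = 0.330). Between the HFDs it had −0.15 ± 0.12 at that time (limma, adjusted p = 0.811). Foxo3, a transcription factor of the Foxo family, was lower in HFD-corn oil vs. control at 8 weeks. It had 8.80 to 9.42 with a mean of 9.04 ± 0.33 in HFD-corn oil (n = 3) and 9.42 to 9.96 with a mean of 9.78 ± 0.25 in control (n = 4, SD), where the values that both round to 9.42 did not overlap, a log2 fold change of −0.74 ± 0.17 (limma, adjusted p = 0.0447). At 12 weeks the value of Foxo3 was 0.33 ± 0.16 (limma, adjusted p = 0.593), and the change from 8 to 12 weeks was 1.07 ± 0.24 (limma, unadjusted p = 0.000143, adjusted p = 1.00). In 12 vs. 8 weeks the Foxo3 controls themselves differed by −0.75 ± 0.16 (limma, unadjusted p = 0.000108, adjusted p = 0.154). The HFD-corn oil livers differed by 0.33 ± 0.17 between these times. Foxo3 was also lower in HFD-EPA/DHA vs. control at 8 weeks, by −0.41 ± 0.16 (limma, unadjusted p = 0.0185, adjusted p = 0.453). Between the HFDs it had 0.34 ± 0.17 at 8 weeks (limma, adjusted p = 0.736). With all 24 arrays in the fit neither Sesn1 nor Foxo3 was called.

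The 10 Foxo1 target genes include Irs2, Insr, Pck1 and Ppargc1a, so their counts repeat those above. The median log2 fold change of this list was −0.32 in HFD-corn oil vs. control at 8 weeks, where 5 of 10 had an unadjusted limma p under 0.05, all lower, against 8.23% of all probe sets, and 0 were called. It was −0.07 in HFD-EPA/DHA vs. control and 0.15 in the contrast between the HFDs at 8 weeks, with 1 of 10 genes lower (Sesn1) and 3 of 10 higher at that p, against 8.05% and 6.92%. At 12 weeks the medians were −0.21 and −0.14 for HFD-EPA/DHA and HFD-corn oil against control and 0.06 between the HFDs, with 3, 4 and 1 of 10 genes at that p, all lower, against 8.44%, 8.53% and 4.63% of all probe sets. Over all probe sets the medians were between −0.03 and 0.03. Igfbp1, a Foxo1 target that binds insulin-like growth factors, had 10.10 to 10.66 in HFD-EPA/DHA, 9.57 to 10.86 in HFD-corn oil and 11.17 to 11.76 in control at 12 weeks, both HFDs without overlap with control. The log2 fold changes of Igfbp1 vs. control were −0.91 ± 0.33 for HFD-EPA/DHA and −1.12 ± 0.33 for HFD-corn oil (limma, adjusted p = 0.351 and 0.238), against 0.39 ± 0.33 and −0.67 ± 0.36 at 8 weeks, and the controls differed by 1.02 ± 0.33 in 12 vs. 8 weeks (limma, adjusted p = 0.494). G6pc, which releases free glucose in the last step of gluconeogenesis, had values of 0.15 ± 0.17 for HFD-EPA/DHA and −0.29 ± 0.18 for HFD-corn oil, each against control at 8 weeks, and 0.00 ± 0.17 and −0.07 ± 0.17 at 12 weeks.

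Igfbp1, G6pc and the genes that follow were not called and were chosen after their values were seen. They follow no ranking by p. Rpia, of the pentose phosphate pathway, had log2 fold changes of −0.53 ± 0.14 at 8 weeks and −0.48 ± 0.14 at 12 weeks in HFD-EPA/DHA vs. control. The groups did not overlap (limma, adjusted p = 0.108 and 0.185). Dlat, a subunit of pyruvate dehydrogenase, had a log2 fold change in HFD-EPA/DHA vs. control of −0.56 ± 0.13 at 8 weeks and −0.51 ± 0.13 at 12 weeks without overlap of the groups (limma, adjusted p = 0.0606 and 0.0945), and in HFD-corn oil vs. control −0.25 ± 0.14 and −0.36 ± 0.13. Gys2, the liver glycogen synthase, had −0.60 ± 0.19 and 0.17 ± 0.19 in the same comparisons (limma, adjusted p = 0.227 and 0.907), and −0.37 ± 0.21 and 0.33 ± 0.19 for HFD-corn oil. Gpd1, glycerol-3-phosphate dehydrogenase, had 0.12 ± 0.08 and 0.29 ± 0.08 for HFD-EPA/DHA vs. control (limma, adjusted p = 0.116 at 12 weeks), and 0.27 ± 0.09 and 0.15 ± 0.08 for HFD-corn oil vs. control (limma, adjusted p = 0.210 and 0.634). Srebf1, which encodes the lipogenic factor SREBP-1, had 0.34 ± 0.23 and 0.60 ± 0.23 for HFD-EPA/DHA vs. control at 8 and 12 weeks, and 0.66 ± 0.25 and 0.98 ± 0.23 for HFD-corn oil vs. control (limma, adjusted p = 0.412 and 0.101).

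**Figure D3:**
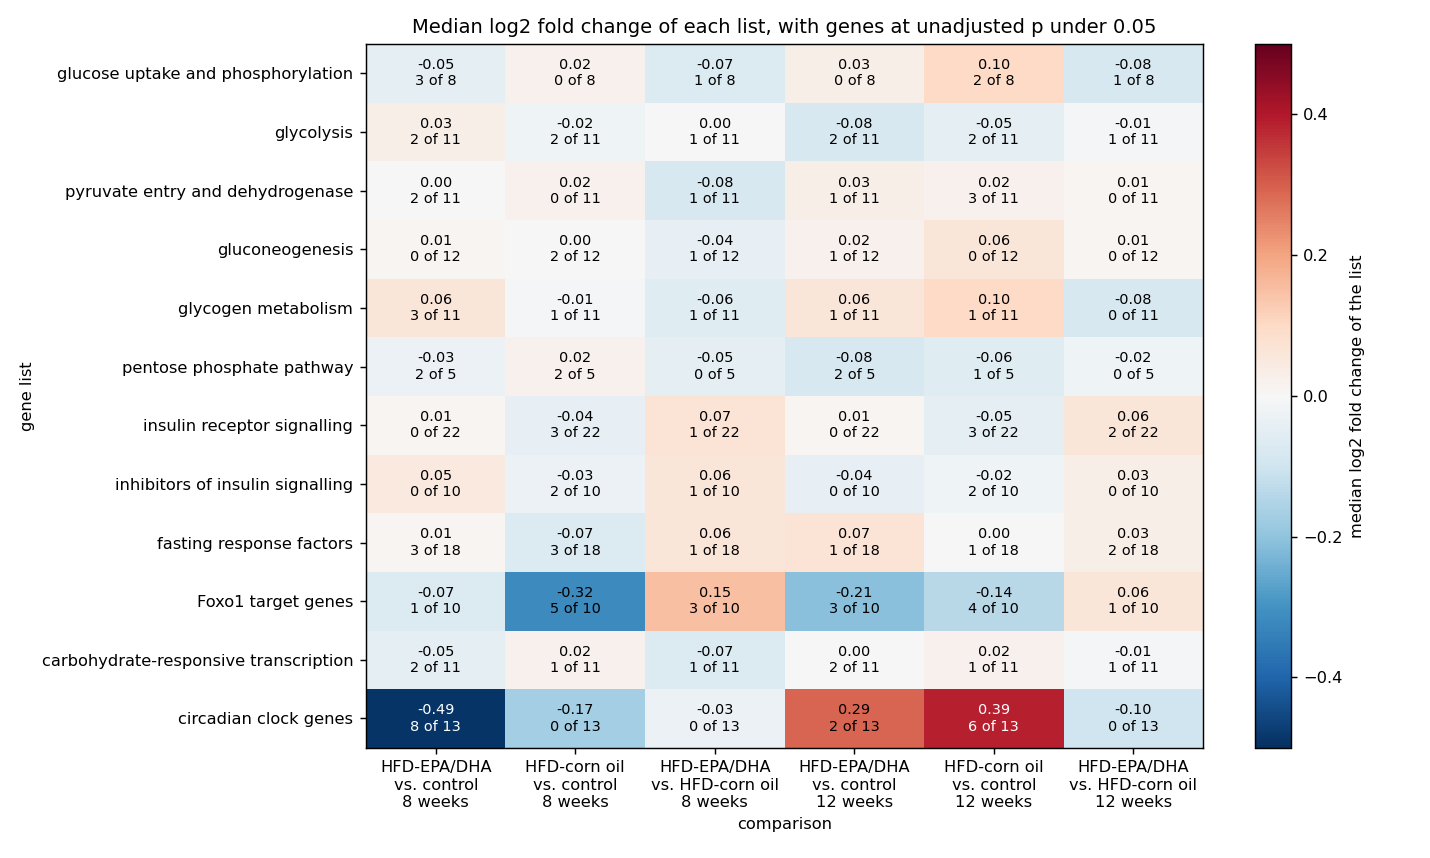
Median log2 fold change (colour and upper number) of each gene list (rows) in the 6 comparisons of diets (columns), with the number of measured genes at an unadjusted limma p under 0.05 (lower number). Foxo1 target genes had −0.32 in HFD-corn oil vs. control at 8 weeks, and circadian clock genes −0.49 in HFD-EPA/DHA vs. control at 8 weeks and 0.39 in HFD-corn oil vs. control at 12 weeks. The glycolysis row includes Pigq, matched by name in place of Gpi1.

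The clock genes, whose transcripts follow the time of day, were taken as a further list. Of 13 measured, 8 had an unadjusted limma p under 0.05 in HFD-EPA/DHA vs. control at 8 weeks, against 8.05% of all probe sets, and 0 in HFD-corn oil vs. control, against 8.23%. At 12 weeks it was 2 for HFD-EPA/DHA (8.44%) and 6 for HFD-corn oil (8.53%) vs. control, and in 12 vs. 8 weeks of the controls 12 (6.89%), with 0 called in each. A clock score was taken as the mean of Per1, Per3, Nr1d1, Nr1d2, Dbp, Tef, Hlf and Ciart minus that of Arntl, Clock and Npas2. It was chosen after the data were seen, and Cry1 and Cry2 are not in it. The adjustment of the permutation tests below does not cover that choice. At 8 weeks the score was −2.52 to 1.94 in HFD-EPA/DHA, −0.38 to 1.96 in HFD-corn oil and 0.29 to 1.92 in control. At 12 weeks it was −1.32 to −0.05, −1.42 to 0.91 and −2.23 to −0.76 in the same diets. With group means removed, Slc2a2 varied with the clock score over 23 mice (Pearson r = 0.78, Spearman rho = 0.71, permutation tests adjusted over all relations of 9 genes with 3 scores, p = 0.0167 and 0.02). The r was 0.78 at 8 weeks and 0.80 at 12 weeks, 0.79 without the 2 mice farthest from the median and 0.67 without replicate 2 of HFD-EPA/DHA at 8 weeks. Irs1 varied the opposite way (r = −0.70, rho = −0.66, adjusted permutation p = 0.0481 and 0.0571), with −0.79 at 8 weeks, −0.55 at 12 weeks and −0.53 without the 2 mice farthest from the median. For Irs1 the adjusted p of rho thus missed 0.05. The other 7 members did not pass with this score, and no member passed with the mean level of the hepatocyte or Kupffer cell markers. Irs1 came closest, with the hepatocyte markers (r = 0.68, rho = 0.59, adjusted permutation p = 0.0729 and 0.0788), where r was 0.96 at 8 weeks and 0.08 at 12 weeks. With the clock score as a covariate, added after the data were seen, the log2 fold change of Slc2a2 in HFD-EPA/DHA vs. control at 8 weeks was −0.08 ± 0.11, against −0.34 ± 0.14 without it. That of Pklr was −0.44 ± 0.17 (limma, adjusted p = 0.545), against −0.65 ± 0.17 without the score, and at 12 weeks −0.62 ± 0.15 (limma, adjusted p = 0.0644), against −0.53 ± 0.17. The part of killing time in these differences was not tested.

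**Figure D4:**
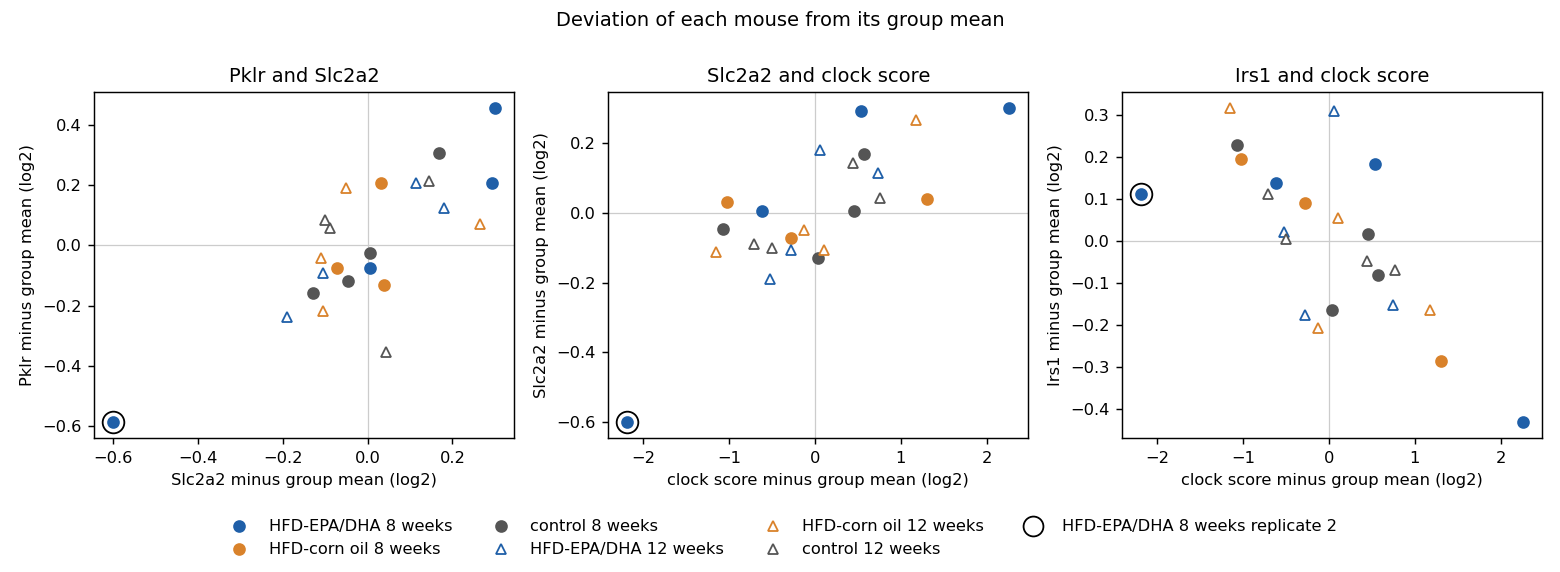
Deviation of each mouse from its group mean (log2) for Pklr against Slc2a2, Slc2a2 against the clock score and Irs1 against the clock score, with filled circles for 8 weeks, open triangles for 12 weeks and a ring around replicate 2 of HFD-EPA/DHA at 8 weeks. That mouse lies lowest for Pklr, Slc2a2 and the clock score, and r over the 23 mice was 0.78, 0.78 and −0.70.

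Among the members themselves, 36 pairs were compared over the 23 mice with group means removed. By Pearson's r 6 pairs passed in permutation tests adjusted over the 36, and 4 of them also by Spearman's rho. The 4 were all positive, namely Pklr and Slc2a2 (r = 0.78, rho = 0.69), Fbp1 and Slc2a2 (r = 0.75, rho = 0.69), Pklr and Fbp1 (r = 0.73, rho = 0.69) and Pck1 and Slc2a2 (r = 0.55, rho = 0.61), with an adjusted permutation p of 0.0183 for each r and 0.043 to 0.0465 for each rho. The other 2 passed by r alone (adjusted permutation p = 0.0183 for r and 0.055 for rho in each). Insr and Foxo1 varied together (r = 0.73, rho = 0.67), and Fbp1 and Irs2 varied in opposite directions (r = −0.59, rho = −0.57, with r of −0.62 at 8 weeks and −0.78 at 12 weeks). Without the 2 mice farthest from the median of the first gene, r was 0.63, 0.64, 0.61 and 0.60. The counts rested on the 8-week mice, where 9 pairs passed alone, against 0 at 12 weeks alone. They also rested on single mice of HFD-EPA/DHA at 8 weeks, since 0 pairs passed without replicate 2, 3 or 4 of that group. Replicate 2 had the lowest Pklr, Slc2a2, Fbp1, Pck1, Insr and Foxo1 of its group and the highest Irs2. Without it r was 0.61 for Pklr and Slc2a2, 0.62 for Fbp1 and Slc2a2, 0.60 for Pklr and Fbp1 and 0.59 for Pck1 and Slc2a2. Ppargc1a and Pklr, which passed at neither r nor rho (adjusted permutation p = 0.147 for r), had r = 0.14 at 8 weeks and 0.81 at 12 weeks.

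The genes most like the other members in pattern over the 23 arrays were described in the same way, with r after removal of group means in brackets. Slc2a2 was followed most closely by Plpp3 (r = 0.89 [0.86]) and Cdc42ep4 (0.88 [0.88]), Irs1 by S1pr1 (0.88 [0.87]), and Ppargc1a by AA986860 (0.82 [0.82]), with Pfkfb2, which makes an activator of glycolysis, next but one (0.81 [0.78]). Fbp1 was followed by Oit3 (0.82 [0.82]), Foxo1 by Bcl2l1 (0.82 [0.87]), Insr by Pitpnc1 (0.83 [0.72]) and Irs2 by 4833411C07Rik (0.78 [0.57]). The closest to Pck1 was Pik3ap1 (0.72 [0.59]), the weakest match of the 9.

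Markers of other cell types were read beside these values. The 7 Kupffer cell markers averaged 9.24 to 9.57 in HFD-EPA/DHA, 9.25 to 9.51 in HFD-corn oil and 9.35 to 9.99 in control at 12 weeks, and 4 of 7 were lower in HFD-EPA/DHA vs. control at an unadjusted limma p under 0.05, against 8.44% of all probe sets, with 0 called. In HFD-corn oil vs. control it was 2 of 7, both lower, against 8.53%. Hepatocyte markers averaged 12.40 to 12.48 in HFD-EPA/DHA, 12.39 to 12.46 in HFD-corn oil and 12.49 to 12.51 in control at 12 weeks. For the hepatocyte markers the controls thus lay above both HFDs at that time. With group means removed, Ppargc1a had r = 0.54 and rho = 0.61 with the hepatocyte markers over the 23 mice (adjusted permutation p = 0.113 and 0.0756) and r = 0.33 and rho = 0.24 with the Kupffer cell markers (adjusted permutation p = 0.448 and 0.65). Irs2 had r = 0.06 and 0.07 with these marker means. The part of these levels in the 12-week differences of Ppargc1a and Irs2 was not tested.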

How the data were processed

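Transcripts of mouse liver were read on GeneChip Mouse Gene 2.0 ST arrays. The deposited log2 values were made by the authors in Affymetrix Expression Console, with perfect match probes, quantile normalization and iter-PLIER. The study calls its normalized values log2, and the range of the deposited values fits that scale. The values were tested as deposited. The array removed by the study was left out. Precision is set by how many arrays a group has. Of 41345 probe sets, 23521 had 1 gene symbol, 1820 several and 16004 none in the platform annotation.

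A single model of the 6 groups was fitted with limma (3.58.1, in R 4.3.3), with a two-sided moderated test, Benjamini-Hochberg adjustment over all probe sets and a threshold of 0.05. The members and the gene lists were chosen with earlier results of these data known. Genes were named as members, as list genes that passed (up to 4 per list and comparison by smallest p), or as the 3 most like a member. Other list genes with values, the clock score and the motifs TTACGTCA, CGTCA and that of Pklr were chosen after the data were seen.

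The labels reuse replicate numbers 1 to 4 in each group and do not say that they pair mice. With group means removed, 55 pairs of arrays with a shared number correlated at −0.31 to 0.26, 14 of them over 0.1, so the number entered as a block in an alternative alone. Correlations between genes used 100000 permutations of mice within groups. The tests were first tried on data made with known answers. There limma found 36% to 61% of probe sets given a log2 change of 0.5, over the 6 comparisons of diets. Of those given a change of 1 it found 94% to 98%. Changes near 0.5 would thus often be missed. The probe sets changed were drawn at random and were not matched to the 9 genes for spread. Ppargc1a, with a pooled SD within groups of 0.464, was not called at −0.98 in HFD-EPA/DHA vs. control at 12 weeks. The alternatives were all 24 arrays, with or without weights per array, 16 added to the linear signal, tests of the brighter probe sets only or of those with 1 symbol, a second quantile normalization, centring on array medians, fits by week or by comparison, a trended robust prior, the replicate block, the average of all probe sets per gene, the clock score as a covariate, and each array left out. Promoter windows and their build are those of RefSeq. Figures were drawn with matplotlib 3.10.9.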

Additional observations from a re-analysis of the deposited data

Results flagged for a closer look

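In groups of 4 mice, 1 sample was checked for its distance from the other 3 in each of 45 groups and genes, and 5 stood apart at the 95% level, where chance gives about 1 in 20. Ppargc1a was 10.05 in replicate 4 of HFD-EPA/DHA at 8 weeks, with 9.30 the nearest. Irs1 was 8.62 in replicate 3 of HFD-EPA/DHA at 8 weeks, with 9.16 the nearest. Fbp1 was 13.09 in replicate 4 of HFD-EPA/DHA at 12 weeks, with 13.15 the nearest. Slc2a2 was 12.06 in replicate 2 of HFD-corn oil at 12 weeks, with 11.74 the nearest. Pck1 was 12.81 in replicate 1 of control at 8 weeks, with 13.08 the nearest.

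The array that was left out (HFD-corn oil, 8 weeks, replicate 3) was above the highest control of 8 weeks for 3 members. It had 11.38 for Insr against 10.96, 9.60 for Irs1 against 9.14 and 11.22 for Foxo1 against 10.79. The same array was below the lowest control of 8 weeks for other members. It had 12.37 for Pck1 against 12.81, 12.83 for Fbp1 against 13.02, 11.53 for Slc2a2 against 11.73 and 9.32 for Irs2 against 9.41.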

How the results depend on the processing

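No member was called in any comparison with the replicate number as a block, 0 of 9 each, and the block changed no call. In HFD-EPA/DHA vs. control at 8 weeks the count of members called was 1 with all 24 arrays and array weights, and 0 to 1 when single arrays were left out, Pklr without HFD-EPA/DHA replicate 3. In HFD-corn oil vs. control at 8 weeks it was 1, Irs2, in a separate fit of the comparison. The shares of all probe sets called under these alternatives were not counted. Of 1350 member values under 13 other alternatives, 8 that lay beyond 1 SE of 0 took the opposite sign, 6 of them at a value within 1 SE of 0, and 46 that lay within 1 SE of 0 also changed sign. Of 2484 values with an array left out these numbers were 0 and 110. With all 24 arrays the log2 fold change of the contrast between the HFDs at 8 weeks was 0.00402 for Fbp1 and −0.0925 for Insr, and the change of HFD-corn oil vs. control was −0.0599 for Insr. With the clock score as a covariate, added after the data were seen, it was 0.0060 for Pck1 in HFD-EPA/DHA vs. control at 8 weeks and −0.00685 for Slc2a2 in HFD-corn oil vs. control at 12 weeks. The change of HFD-EPA/DHA vs. control was then −0.00404 for Slc2a2, and 12 vs. 8 weeks of control was 0.19 for Slc2a2 and −0.20 for Irs1. The causes were not tested. Pairs of members that varied together, whose alternatives were also added after the data were seen, numbered 6 with all mice, 0 at 12 weeks alone and 0 to 12 with single arrays left out. The numbers 0 came without HFD-EPA/DHA replicate 2, 3 or 4 at 8 weeks and 12 without HFD-corn oil replicate 3 at 12 weeks. The 3 or 4 arrays of a group limit the precision.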

Other observations

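The second probe set of Foxo1, with a mean of 7.36 near the array medians, had a log2 fold change of 0.21 ± 0.12 in HFD-EPA/DHA vs. control at 8 weeks and 0.06 ± 0.12 at 12 weeks, with intervals that included 0.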
